A study of Homo sapiens with 6 samples.

Results

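The regions described here are 8918 CpG-rich promoter regions of RH30 cells that were open in every library, among 47847 regions called in all 6 libraries and 105441 called in any. They were found by merging the overlapping peaks of the 6 deposited lists on the autosomes and chromosome X. A merged region was kept if every library had a peak in it and if the summit of its peak with the highest fold enrichment lay within 2 kb of the 5′ end of a protein-coding gene. The 250 bp on each side of that summit also had to hold an observed over expected CpG ratio of at least 0.6 and a GC content of at least 50%. The members were thus chosen by measured values, namely the calls and summits of these libraries, and their being open in all 6 is a condition and not a finding. A region is named by the gene with the nearest 5′ end. The 8918 regions had 8854 different nearest genes, and 10498 of 19970 annotated protein-coding genes had a 5′ end within 2 kb of a member.

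ATAC-seq, which marks open chromatin by the insertion of adapters with the Tn5 transposase, was performed on RH30 cells, a rhabdomyosarcoma line that carries the PAX3::FOXO1 fusion. The vector group was 3 libraries of cells with Cas9 and a scramble guide that targets no gene. The MyoD-deleted group was 3 libraries of cells with Cas9 and guides against MyoD, the myogenic transcription factor. Whether the transduced cells were pools or clones is not given for these libraries in the sources used here, so cells that kept MyoD may be present, and the paper names the cells RH30 in some places and RH30-SR in others.

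CpG islands are stretches in which CpG dinucleotides have been kept because they are usually free of DNA methylation in the germ line, and they overlap the promoters of most housekeeping genes and of many developmental genes. Promoters of this kind are bound by broadly expressed factors such as SP1, NRF1, ETS proteins and NF-Y, and they tend to be open in most cell types. MyoD binds E boxes, many of which lie far from promoters in muscle cells, and the enzymes DNMT1, DNMT3A and DNMT3B, which write and maintain DNA methylation, have CpG-rich promoters themselves.

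Several members are shown first, because the results below turn on them. Each is the hg38 plus strand from 100 bp before to 100 bp after the summit, in lower case, with capitals where 1 of 15 short motifs was found on either strand. The motifs and their shares are given further on. NOLC1, a nucleolar chaperone gene, had 4 kinds of the activating promoter motifs (chr10:102152087-102152287). OS9 had the highest summit of all members (chr12:57693905-57694105). The summit at LMF1 and beside SOX8 had the largest change (chr16:981088-981288), and its capitals include the E box CAGCTG. A region at the outermost 5′ end of DNMT1 and within 2 kb of S1PR2 (chr19:10231054-10231254) was higher in MyoD-deleted cells. SLC9B1 (chr4:103019488-103019688) was also higher, and DYNC1I2 (chr2:171687414-171687614) was lower. CYLD, a deubiquitinase gene central to the study, is shown for comparison (chr16:50741791-50741991).
NOLC1: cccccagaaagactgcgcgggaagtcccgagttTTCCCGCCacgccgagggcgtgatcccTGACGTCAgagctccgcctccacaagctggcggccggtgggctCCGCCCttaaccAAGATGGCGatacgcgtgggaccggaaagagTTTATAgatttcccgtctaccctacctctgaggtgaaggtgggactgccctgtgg
OS9: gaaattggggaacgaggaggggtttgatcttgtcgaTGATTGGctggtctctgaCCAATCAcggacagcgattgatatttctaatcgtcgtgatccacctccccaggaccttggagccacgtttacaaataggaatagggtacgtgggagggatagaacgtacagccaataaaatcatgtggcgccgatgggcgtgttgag
LMF1 and SOX8: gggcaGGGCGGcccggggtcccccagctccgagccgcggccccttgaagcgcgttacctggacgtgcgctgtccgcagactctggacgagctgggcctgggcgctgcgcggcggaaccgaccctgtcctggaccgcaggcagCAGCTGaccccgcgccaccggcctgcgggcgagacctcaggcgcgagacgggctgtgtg
DNMT1: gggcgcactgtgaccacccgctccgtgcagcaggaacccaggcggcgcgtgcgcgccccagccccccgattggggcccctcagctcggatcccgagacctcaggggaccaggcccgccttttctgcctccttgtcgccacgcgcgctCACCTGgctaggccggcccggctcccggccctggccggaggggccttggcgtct
SLC9B1: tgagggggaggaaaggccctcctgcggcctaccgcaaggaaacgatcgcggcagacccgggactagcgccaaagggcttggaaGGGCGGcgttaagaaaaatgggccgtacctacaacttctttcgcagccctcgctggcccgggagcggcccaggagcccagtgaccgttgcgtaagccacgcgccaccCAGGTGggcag
DYNC1I2: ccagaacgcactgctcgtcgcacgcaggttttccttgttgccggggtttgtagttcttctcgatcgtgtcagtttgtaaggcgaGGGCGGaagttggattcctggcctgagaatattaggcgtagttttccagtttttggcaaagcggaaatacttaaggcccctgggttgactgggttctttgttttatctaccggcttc
CYLD: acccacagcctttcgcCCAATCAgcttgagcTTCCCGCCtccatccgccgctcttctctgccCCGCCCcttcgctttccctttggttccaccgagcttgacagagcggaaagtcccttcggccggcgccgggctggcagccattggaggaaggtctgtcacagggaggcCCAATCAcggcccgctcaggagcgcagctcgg

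A CpG-rich promoter called in any library was mostly called in all of them. Of 9250 CpG-rich promoter regions called in any library, 8918 (96.4%) were called in all 6, against 1698 of 3275 CpG-poor promoter regions (51.8%). Summits of the shared CpG-rich regions were also higher, as given below, and the part of height in this difference was not tested. Only 6 were called in the 3 vector libraries and in no MyoD-deleted library, and 11 in the 3 MyoD-deleted libraries and in no vector library. These 17 regions are not members. Among the 11 was the promoter of FLNC, a muscle filamin, and among the 6 that of CA4, a carbonic anhydrase (named after their values were seen). Of 11854 genes whose own 5′ end is CpG-rich by the same limits, 9305 (78.5%) had a member within 2 kb.

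The members had the highest summits of the 3 classes compared. Summit height is given here as log2 of the pileup at the summit, recovered from the fold enrichment and p-value of the peak, over the smallest background of the library, minus the median of all shared regions in that library. The median member stood at 1.61, 1.71 and 1.83 in vector replicates 1, 2 and 3, and at 1.76, 1.72 and 1.76 in MyoD-deleted replicates 1, 2 and 3. The group means of these medians were 1.71 ± 0.109 and 1.75 ± 0.0255 (SD, n = 3), so the groups overlapped and vector replicate 1 was the lowest. CpG-poor promoter regions had medians between 0.34 and 0.42, and distal regions, which lie more than 2 kb from a 5′ end, between -0.38 and -0.32. By rank of fold enrichment, which is the pileup over the local background, the median member stood at percentiles from 77.3 to 80.8 of shared regions. The peak lists held 63068 to 80530 peaks on these chromosomes, and the protocol gives more than 60000000 total reads but no total for each library.

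**Figure D1:**
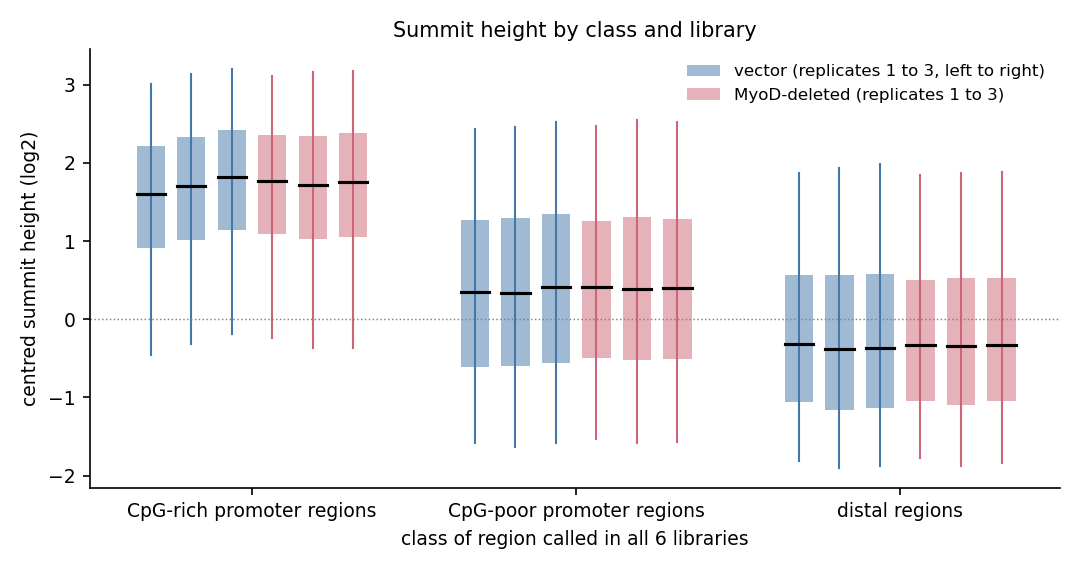
Centred summit height on a log2 scale for 3 classes of region called in all 6 libraries, with the median (line), the middle 50% (box) and the 5th to 95th percentile (thin line) of each library. The 6 medians of the CpG-rich promoter regions lie between 1.61 and 1.83, above every median of the other classes.

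The rule bounded sequence and position, and the values within its limits are given here as a description. The CpG ratio had a median of 0.858, with 0.776 and 0.937 as quartiles, and the GC content a median of 68.5%. The summit lay a median of 20 bp downstream of the 5′ end, and 6886 members (77.2%) had it within 250 bp. The medians of the 6 libraries taken singly were 18 to 24 bp. In 67.0% of members the 6 summits lay within 100 bp of each other. Set against the canonical transcript of the nearest gene, which may start inside the outermost 5′ end of the gene, 5616 summits were upstream of it, 2179 in the untranslated part of exon 1, 436 in its coding part and 615 in intron 1. Summits on the upstream side of the gene's 5′ end were higher than those at or downstream of it, with a median of 1.86 against 1.63. The 767 members at divergent genes had a median of 2.04, against 1.69 for the other 8151. Height hardly followed CpG density within the class (Spearman's rho across 8918 members 0.050, a description, since members share the libraries and their base composition).

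Limits on CpG, GC and distance fixed who was a member, and regions of high and low summits lay on each side of them. At a CpG ratio of 0.6 lay UNC13A, KAT2B and MBD3L3 inside, with mean heights of -0.27, 1.03 and 2.66, and RIMS3, BHLHE40 and GATA3 just outside, with 2.07, 2.41 and -1.79. At a GC content of 50.1% lay TTC5, TTC6 and ZRANB3 inside, with 0.35, 0.83 and 2.79, and at 49.9% RPL32, SENP7 and POLR3A outside, with 1.24, 0.42 and 0.49. By distance, CSPG5, NOTUM and CIBAR1 were inside at 1996, 1994 and 1991 bp, with -0.64, -0.10 and 1.5, and PDP2, GBX1 and BCAR1 outside at 2005, 2007 and 2015 bp, with 1.72, -0.31 and -0.31. The CpG limit left out 1241 promoter regions, the GC limit 84, and the distance limit 3090 CpG-rich regions.

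The highest members lay side by side on chromosome 12. The 8 with the highest mean height (OS9, CTDSP2, NAB2, ENSG00000285133 beside MBD6 and DDIT3, R3HDM2, DDIT3, SHMT2 and TSFM) were all at chr12:57086750-57847411. OS9, which encodes a lectin of the endoplasmic reticulum, had 5.80, 6.12 and 6.03 in vector and 6.00, 6.00 and 6.05 in MyoD-deleted replicates. CTDSP2, a phosphatase gene, had 5.59, 6.00 and 5.98 in vector and 5.87, 5.58 and 5.69 in MyoD-deleted replicates. The 17 members in that span had a median height of 4.38, against 1.75 for the other 432 on chromosome 12, and a median local background of 4.53 on the same scale, and 0 of them changed by height. RH30 is known for amplification of this part of 12q13, and the number of DNA copies was not measured here, so copies and openness cannot be told apart in these heights.

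The study asked what the loss of MyoD does to chromatin, and the change in height of this class was measured relative to the median shared region. The median change, MyoD-deleted minus vector, was 0.039, beside 0.035 over all shared regions. Of the members, 87.3% changed by less than 0.25 log2 units, against 52.9% of all shared regions, and the SD of the change was 0.171 against 0.491. It was 0.420 for CpG-poor promoter regions and 0.542 for distal regions. Changes over 0.5 in either direction occurred in 107 members (1.20%) and in 29.2% of distal regions.

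**Figure D2:**
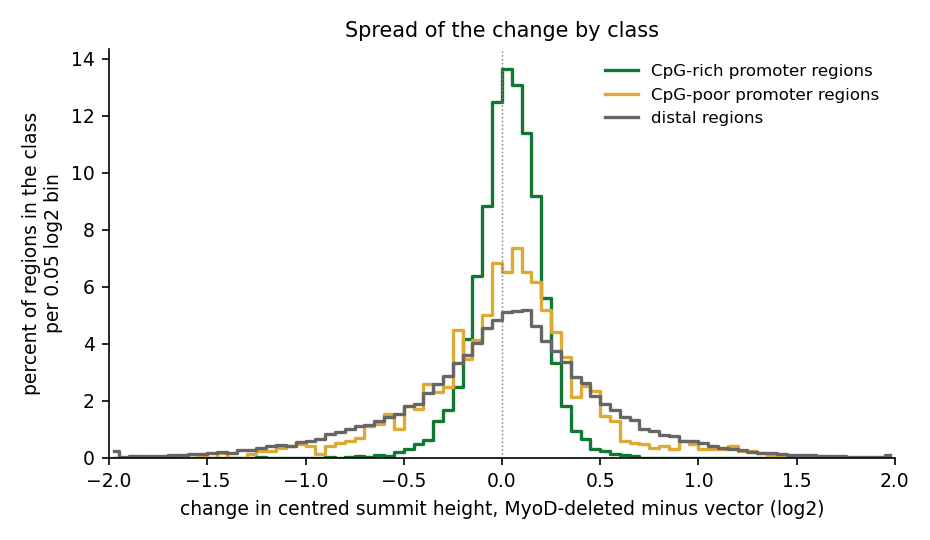
Change in centred summit height (MyoD-deleted minus vector, log2) as the percent of regions of each class in bins of 0.05, with values beyond 2 set in the last bin. The curve of the CpG-rich promoter regions (SD 0.171) is narrower than those of the CpG-poor promoter regions (SD 0.420) and the distal regions (SD 0.542).

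Tested with limma at a Benjamini-Hochberg adjusted p under 0.05 over all 47847 shared regions, 227 members were higher in MyoD-deleted cells and 169 were lower. That is 2.55% and 1.90% of members, and the share of all shared regions was 11.4% higher and 12.8% lower. Counted in both directions it was 4.44% of members, 23.1% of CpG-poor promoter regions, 29.0% of distal regions and 24.2% of all. At an unadjusted p under 0.05, 1088 of 8918 members passed, beside 16734 of the 47847 shared regions. Among members called higher the median change was 0.37 and among those called lower -0.41, and the smallest change that was called was 0.24. The 95% interval of the change lay wholly within 0.5 log2 units of 0 for 7412 members (83.1%) and for 36.2% of all shared regions. The 3 and 3 libraries did not overlap in 1627 members (18.2%), against 37.8% of all shared regions. In bulk libraries, a change in the share of cells that are open and a change in openness per cell cannot be told apart.

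The libraries did not all weigh the same in the split between higher and lower. Without vector replicate 1 the counts were 198 higher and 448 lower, and without vector replicate 3 they were 441 and 70. Leaving out vector replicate 2 gave 68 and 72, and leaving out MyoD-deleted replicate 1, 2 or 3 gave 122 and 143, 84 and 69, and 97 and 98. Without centring, the median of all shared regions shifted by 0.23, and 1778 members were higher and 28 lower, beside 24.7% and 8.03% of all shared regions. The direction of the class as a whole therefore depends on the scaling, and the changes below are relative to the median shared region.

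Level and replicate spread were also set beside those of the other classes. Within the middle 50% of the members' heights, between 1.05 and 2.34, 196 of 4458 members (4.4%) changed, against 93 of 412 CpG-poor promoter regions (22.6%) and 1407 of 4559 distal regions (30.9%). The median SD between replicates in that range was 0.127 for members, 0.119 for CpG-poor promoter regions and 0.133 for distal regions. By rank of fold enrichment within each library, which needs no depth, 55 members were higher and 55 lower, or 1.23% in both directions, beside 4.12% and 4.67% of all shared regions. Within the class, 6.73% of the 2230 members with a CpG ratio under 0.776 were called and 3.10% of the 2229 with one over 0.937. Of the 452 members with the summit over 1 kb away 6.64% were called, and of the 4572 within 100 bp 4.0%, differences that were not tested.

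**Figure D3:**
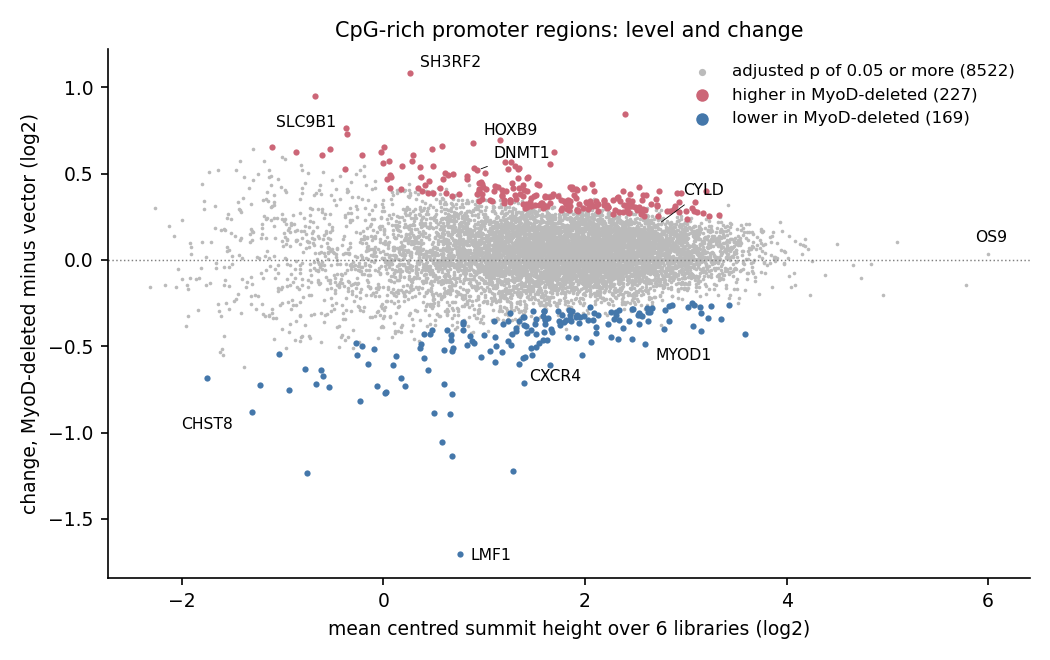
Mean centred summit height over 6 libraries (x, log2) and change, MyoD-deleted minus vector (y, log2), for each of the 8918 CpG-rich promoter regions, with the 227 called higher in red and the 169 called lower in blue. The change of most members is near 0 at every height, LMF1 at -1.70 and SH3RF2 at 1.08 mark the ends, and OS9 is the highest.

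The largest change was at the promoter region of LMF1, a lipase maturation factor gene, and SOX8, a transcription factor gene of the SOX family (chr16:980778-982253). The summit lies 130 bp downstream of the 5′ end of LMF1. Its heights were 1.45, 1.63 and 1.74 in vector and -0.13, 0.00 and -0.16 in MyoD-deleted replicates, from pileups of 221, 173 and 221 against 53, 66 and 61. It fell by 1.70 ± 0.129 (SE) on the log2 scale, to 0.307 of the vector level (limma adjusted p = 2.67e-07), and the groups were far apart. Its local background fell by 1.18 (adjusted p = 3.08e-05). Which of both genes the region serves cannot be read from the position.

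A change of more than 1 log2 unit occurred in 6.13% of all shared regions. Among members it occurred in 6 (0.0673%), a count made after the values were seen. Besides LMF1 these were COBL, an actin nucleator gene, at -1.24, SHD at -1.22, ADGRA1, an adhesion receptor gene, at -1.14, PLEKHD1 at -1.06, and SH3RF2, a ubiquitin ligase gene of the study's guide library, at 1.08. ADGRA1 had 1.27, 1.25 and 1.22 in vector and 0.07, 0.22 and 0.04 in MyoD-deleted replicates. SH3RF2 had 0.12, -0.56 and -0.40 in vector and 0.60, 0.91 and 0.89 in MyoD-deleted replicates. The local background around all 6 moved the same way, by between 0.84 and 1.18 log2 units in size. Among them LMF1 alone also passed by rank of fold enrichment. The part of the background in these changes was not tested. Over the class, 143 of the 227 members called higher also had a higher local background and 66 of the 169 called lower a lower one, and 0 had it called in the opposite direction.

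Height and rank together, with no overlap between the groups, called 15 members higher and 25 lower, or 0.168% and 0.280%, beside 3.35% and 4.11% of all shared regions. Among the 10 of these that fell most was CHST8, a sulfotransferase gene, with -1.13, -0.56 and -0.92 in vector and -1.95, -1.46 and -1.84 in MyoD-deleted replicates. ADAMTS5, an aggrecanase gene, had 0.05, 0.58 and 0.57 against -0.30, -0.55 and -0.23, and all 3 MyoD-deleted libraries were below all vector libraries. Its summit lies in the coding part of exon 1, 1414 bp downstream of the 5′ end. The other ADAMTS5 member, just upstream of the 5′ end, had 1.09, 0.96 and 1.32 in vector and 1.14, 0.89 and 1.03 in MyoD-deleted replicates, which overlapped. VEGFC, a growth factor gene of lymphatic vessels, fell by 0.49 ± 0.157 (SE), and GLRA3, a glycine receptor gene, by 0.76 ± 0.195 (SE). ITIH5, CTXN2 (beside MYEF2), ASRGL1 and CCDC50 fell by 0.73, 0.73, 0.48 and 0.47. Several of these calls by height ended when a library was left out. The ASRGL1 call ended without any single library (adjusted p from 0.0636 to 0.098), and the CCDC50 call without vector replicate 2 or 3 or MyoD-deleted replicate 2 or 3 (0.0651 to 0.121). That of CTXN2 ended without vector replicate 3 or MyoD-deleted replicate 1 or 2 (0.0542 to 0.0907). That of VEGFC ended without vector replicate 3 or MyoD-deleted replicate 2 or 3 (0.0984 to 0.16) and that of CHST8 without vector replicate 2 (0.0588). LMF1, ADAMTS5, GLRA3, ITIH5 and DYNC1I2 kept theirs without each library. Without centring the calls of CTXN2, DYNC1I2, VEGFC, CCDC50 and ASRGL1 ended (limma adjusted p from 0.0675 to 0.225). Those of LMF1, ADAMTS5, GLRA3, ITIH5 and CHST8 were kept without centring. DYNC1I2, a dynein intermediate chain gene, had the highest mean of the 10 in vector cells, with 1.81, 1.71 and 1.83 against 1.43, 1.25 and 1.23, and its fold enrichment fell from a mean percentile of 95.8 to 78.0 among shared regions (adjusted p by rank = 0.00816).

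Of the 10 that rose most, SLC9B1, a sodium and proton exchanger gene, led with -0.73, -0.90 and -0.55 in vector and -0.10, -0.02 and 0.14 in MyoD-deleted replicates, a rise of 0.73 ± 0.174 (SE). ACLY, the ATP citrate lyase that supplies acetyl-CoA, had 1.05, 0.84 and 1.05 against 1.49, 1.61 and 1.53, with no overlap, and rose 1.48-fold (adjusted p = 0.0013). PLTP, a phospholipid transfer gene, rose by 0.66, JSRP1 (beside OAZ1), a sarcoplasmic reticulum protein gene, by 0.64, AKAP12, a kinase anchor gene, by 0.64, MAPRE3, a microtubule end-binding gene, by 0.61, MAGEE1 by 0.52, ANKRD11 by 0.47 and GNA11 by 0.42. The MAGEE1 call ended without vector replicate 2 or 3 or MyoD-deleted replicate 1 or 3 (adjusted p from 0.0722 to 0.114) and the GNA11 call without vector replicate 2 or MyoD-deleted replicate 1 (0.0547 to 0.055). Those of JSRP1 and ANKRD11 ended without MyoD-deleted replicate 1 (0.0699 and 0.0533) and that of AKAP12 without MyoD-deleted replicate 2 (0.0526), and SLC9B1, PLTP, MAPRE3 and ACLY kept theirs without each library. The summits of PLTP and ANKRD11 lie in introns, more than 1 kb downstream of the 5′ end, and that of JSRP1 more than 1 kb upstream. By fold enrichment JSRP1 and ANKRD11 stood low among shared regions. Their mean percentiles were 0.28 and 0.31 in vector and 2.68 and 2.66 in MyoD-deleted libraries.

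**Figure D4:**
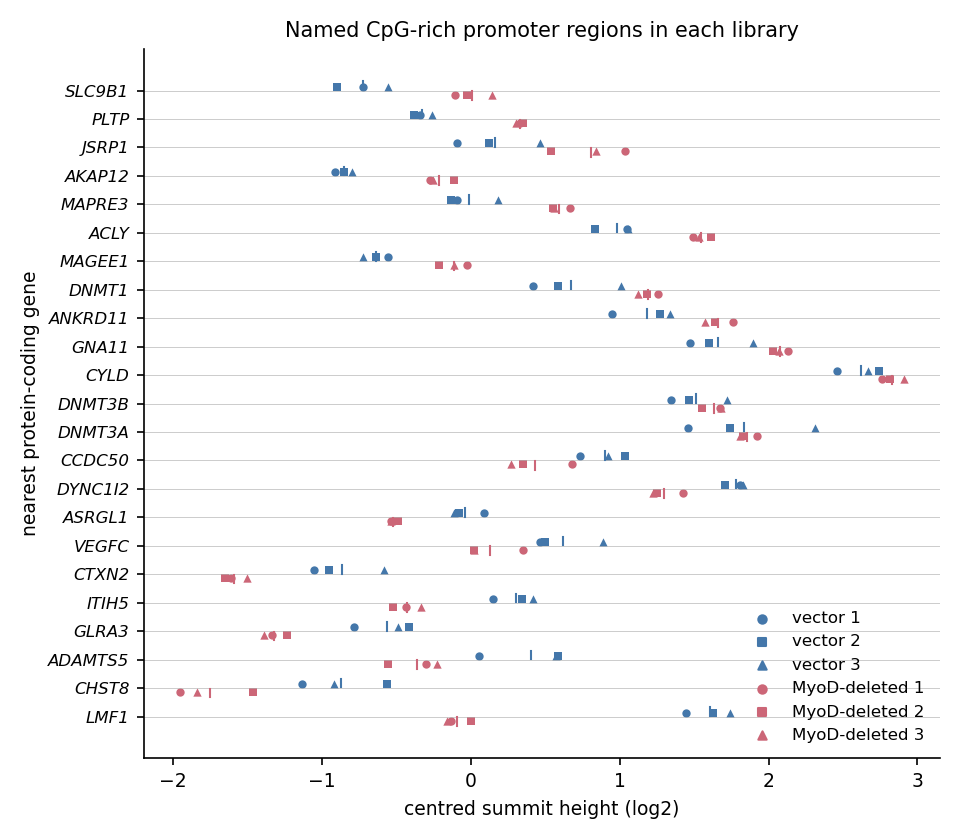
Centred summit height (log2) in each of the 6 libraries for the 10 members that rose most, the 10 that fell most and the promoters of CYLD, DNMT3A and DNMT3B, with ticks at the group means. In the 20 that were chosen for it the vector and MyoD-deleted points do not overlap, whereas those of DNMT3A do.

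The region named DNMT1, after the maintenance methyltransferase gene that the study follows, was among those that rose. It lies at chr19:10230719-10231728, also within 2 kb of S1PR2. The 5′ end used for DNMT1 is the outermost annotated one, and promoters of transcripts that start further inside are not described here. Which of both genes the region serves cannot be read from the position. Its heights were 0.42, 0.58 and 1.01 in vector and 1.26, 1.18 and 1.12 in MyoD-deleted replicates. The rise was 0.52 ± 0.144 (SE), or 1.43-fold, with an adjusted p of 0.013 by limma on height and 0.0403 on rank, and the call by height was lost without vector replicate 2 (0.0613), without MyoD-deleted replicate 1 (0.0676) and without the variance trend (0.0545). DNMT3A had 1.46, 1.74 and 2.31 against 1.92, 1.83 and 1.81, where vector replicates 1 and 3 lay on both sides of all MyoD-deleted replicates (change 0.014 ± 0.154 SE, adjusted p = 0.963, 95% interval -0.31 to 0.34). DNMT3B had 1.35, 1.47 and 1.72 against 1.67, 1.56 and 1.68 (0.12 ± 0.115 SE, adjusted p = 0.49). The paper reports reduced DNMT1 and DNMT3A mRNA in RH30 cells without MyoD, and RNA was not measured in these libraries. Of 18 genes of DNA methylation and its readers, 16 had a member, with 1 higher (the region shared with S1PR2) and 0 lower and a median change of 0.053.

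CYLD was among the more open promoters, with heights of 2.46, 2.74 and 2.67 in vector and 2.76, 2.81 and 2.91 in MyoD-deleted replicates, from pileups of 445, 375 and 419 against 394, 464 and 510. Each MyoD-deleted library was above each vector library by a narrow margin. The change was 0.21 ± 0.096 (SE, limma adjusted p = 0.134) and its fold enrichment stood at a mean percentile of 95.3 and 94.5. Its local background rose by 0.26 (adjusted p = 0.0294). Without centring the change in height was 0.40 (adjusted p = 0.0197), where the median of all shared regions itself shifted by 0.23.

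The gene lists were read against the class, in which 2.55% of members were higher and 1.90% lower. Few promoters of the housekeeping machinery passed the test. Of 74 member regions of ribosomal protein genes, 0 rose and 1 fell (RPL9, beside LIAS, at -0.32 ± 0.096 SE), and the median change was 0.021. Of 69 of oxidative phosphorylation, 0 passed in either direction. Of 32 proteasome regions, 0 rose and 1 fell, the one shared by PSMA1 and PDE3B (-0.49). The RPL9 call ended without vector replicate 2 or MyoD-deleted replicate 2 or 3 (adjusted p from 0.0623 to 0.10), and the PDE3B call without vector replicate 2 or 3 or MyoD-deleted replicate 1 (0.0773 to 0.0906). Of 28 regions of aminoacyl-tRNA synthetases 1 rose, between HARS1 and HARS2 (0.32), of 32 of the replication machinery 1 rose, GINS4 (0.30), and of 22 of cyclins, CDKs and their inhibitors 0 passed. The GINS4 call ended without any single library except vector replicate 3 (adjusted p from 0.0533 to 0.214), and the HARS2 call without vector replicate 2 or MyoD-deleted replicate 2 or 3 (0.0572 to 0.0738). Of 16 regions of common reference genes 0 passed, with a median change of -0.027. Promoters of the unfolded protein and heat shock response had the highest level of these lists, with medians from 2.55 to 2.78 over the libraries, and 0 of 19 passed.

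In the lists of muscle genes and of genes tied to fusion-positive rhabdomyosarcoma, the members that passed the test fell. The region named JSRP1 and given above, which lies beside OAZ1, is outside these lists and rose by 0.64. Its position does not tell which of these genes it serves, so it is not counted as a muscle gene here. It stood low by fold enrichment, and its call ended without MyoD-deleted replicate 1. Of 50 myogenic regulators and muscle genes, 19 have a CpG-rich 5′ end and 17 had a member, and 0 rose and 2 fell. These were MYOD1 itself, with 2.75, 2.84 and 2.94 in vector and 2.14, 2.5 and 2.43 in MyoD-deleted replicates (-0.49 ± 0.103 SE, adjusted p = 0.0021), and DES, the muscle intermediate filament, with 1.00, 0.88 and 0.96 against 0.57, 0.40 and 0.29 (-0.53 ± 0.129 SE, adjusted p = 0.00597). Neither passed by rank (adjusted p of 0.408 and 0.405), and without centring both lost the call. MYOD1 is also the gene that the guides target, and the part of the edit itself in its fall was not tested. Among 15 regions of genes tied to fusion-positive rhabdomyosarcoma, 0 rose and 3 fell. CXCR4, a chemokine receptor, had 1.62, 1.64 and 1.67 against 1.05, 0.91 and 1.16 (-0.60 ± 0.111 SE, adjusted p = 0.000648), and MYCN and ALK had -0.36 and -0.32 with adjusted p of 0.0465 and 0.0394, calls that were lost without vector replicate 2 or 3 or MyoD-deleted replicate 1 or 3, and for MYCN also without MyoD-deleted replicate 2 (adjusted p from 0.0503 to 0.206 for MYCN and 0.104 to 0.188 for ALK). Without centring CXCR4 kept its call (limma adjusted p = 0.0219), and MYCN and ALK lost theirs (0.342 and 0.482). The local background of these regions fell as well, by 0.60 at CXCR4, 0.33 at MYCN and 0.50 at ALK. PAX3, whose promoter drives the fusion, had a mean of 3.10 ± 0.095 in vector and 3.06 ± 0.063 in MyoD-deleted libraries (SD, n = 3). As a check of the cells, 6 of 11 muscle markers had a member and 0 of 5 epithelial, 0 of 4 blood and 0 of 3 endothelial markers did, of which 3, 0 and 1 have a CpG-rich 5′ end.

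Among the lists with members, the HOX genes had the lowest heights. Of 39 HOX genes, which set position along the body axis, 25 have a CpG-rich 5′ end and 20 had a member, with medians between -0.11 and 0.30 over the libraries, far below the class. HOXB9 rose, with 0.47, 0.46 and 0.72 in vector and 1.27, 1.23 and 1.18 in MyoD-deleted replicates (0.68 ± 0.124 SE, adjusted p = 0.000625), with no overlap, although not by rank (adjusted p = 0.394). Of 148 other developmental transcription factors 116 have a CpG-rich 5′ end and 71 had a member. Of these 0 rose and 4 fell, namely SOX8 (the LMF1 region), FOXP1 (-0.60), LHX4 (-0.41) and EYA4 (-0.35), a transcriptional coactivator. The LHX4 call ended without any single library except vector replicate 1 (adjusted p from 0.0532 to 0.19), under the replicate block and under quantile normalization. The EYA4 call ended without vector or MyoD-deleted replicate 2 (0.107 to 0.121) and the FOXP1 call without vector or MyoD-deleted replicate 3 (0.0755 to 0.0869), and without centring all but that of the LMF1 region ended. Of 28 regions of Polycomb and Trithorax subunits 2 rose, SUZ12 (0.31 ± 0.095 SE, adjusted p = 0.023) and PCGF3 (0.32 ± 0.111 SE, adjusted p = 0.0418), both subunits of Polycomb complexes. The PCGF3 call ended without any single library except vector replicate 3 (adjusted p from 0.0501 to 0.17), and the SUZ12 call without vector replicate 1 or MyoD-deleted replicate 2 or 3 (0.0562 to 0.104). Of 22 regions of replication-dependent histone genes 1 fell, between H2BC12 and H2AC12, a call that ended without vector replicate 2 or MyoD-deleted replicate 1 (adjusted p of 0.0699 and 0.103 as the lowest and highest).

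The lists of signalling and death genes are too short to be set apart from the class, of which 4.44% passed in either direction. Of 19 NF-κB regions 1 rose, NFKBIE, an inhibitor of the pathway (0.42 ± 0.118 SE, adjusted p = 0.0148), of 18 AP-1 and immediate early regions 1 rose, FOSL1 (0.37), and of 14 regions of YAP, TEAD and their targets 0 passed. Of 13 BCL2 family and 14 caspase and death receptor regions 0 passed, with MCL1 and BBC3 both at 0.27 (adjusted p of 0.147 and 0.15). Of 14 mesenchymal and matrix regions 3 rose, NT5E (0.47), TGFB1 (0.35) and COL5A1 (0.31), and VIM fell by 0.27. NT5E kept its call without each library. The TGFB1 call ended without any single library except vector replicate 3 (adjusted p from 0.0849 to 0.189), the COL5A1 call without vector replicate 1 or 2 or MyoD-deleted replicate 1 or 2 (0.0515 to 0.106) and the VIM call without vector replicate 2 or 3 or MyoD-deleted replicate 2 or 3 (0.0634 to 0.219). The NFKBIE call ended without MyoD-deleted replicate 1 (0.0924). The study's guide library and primer list were picked by the study and are not independent evidence of a direction. Of 16 regions of the guide library 3 rose, SH3RF2 (1.08), CDH6 (0.69 ± 0.129 SE) and RNF144B (0.54 ± 0.152 SE), and 0 fell, with a median change of 0.15. Of 40 regions of other primer-list genes 3 rose, EDNRA (0.63), FOSL1 and RNF41 (0.30). SH3RF2 and CDH6 kept their calls without each library, and RNF144B lost its call without vector or MyoD-deleted replicate 2 (adjusted p of 0.0743 and 0.0791 as the lowest and highest). The EDNRA call ended without vector replicate 2 or 3 or MyoD-deleted replicate 1 or 2 (0.054 to 0.209), the FOSL1 call without vector replicate 1 or 2 or MyoD-deleted replicate 2 or 3 (0.0688 to 0.171) and the RNF41 call without vector replicate 2 or 3 or MyoD-deleted replicate 2 or 3 (0.0556 to 0.107).

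Zinc finger genes were the longest list, and most of those that rose lay on chromosome 19. Of 328 regions of ZNF genes, 18 rose and 2 fell, with a median change of 0.10. Split by chromosome, 143 ZNF regions on chromosome 19 had 13 higher and 0 lower and a median change of 0.16, and the 495 other members there had 25 higher and 3 lower and 0.12. The 186 ZNF regions elsewhere had 5 higher and 2 lower and a median change of 0.027, close to the 0.032 of the other 8094 members. ZNF regions on chromosome 19 had medians of 0.95, 0.93 and 1.11 in vector and 1.24, 1.13 and 1.22 in MyoD-deleted replicates, so every MyoD-deleted library was above every vector library by at least a small margin. ZNF71 had 0.97, 0.75 and 1.04 against 1.57, 1.31 and 1.58 (0.57 ± 0.123 SE, adjusted p = 0.00244), and ZNF235 had 1.09, 0.85 and 0.99 against 1.38, 1.42 and 1.71.

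The median change also differed between chromosomes. Chromosomes 19, 22, 17 and 16 had median changes of 0.13, 0.11, 0.11 and 0.093, and chromosomes 13 and 4 had -0.040 and -0.0094. On chromosome 17, 25 of 535 members rose and 1 fell, and on chromosome 19, 38 of 638 rose and 3 fell. Counted in both directions that is 4.86% and 6.43%, beside 24.2% of all shared regions. Of distal regions, 343 of 1991 rose and 257 fell on chromosome 17. On chromosome 19, 162 of 1261 distal regions rose and 133 fell. Across the 23 chromosomes the median change followed the number of members per megabase (Spearman's rho 0.791) and the median change of distal regions on the same chromosome (rho 0.720), given as descriptions over chromosomes that share the 6 libraries. The local background of members on chromosome 19 moved by a median of 0.14 and that of members on chromosome 13 by -0.012. The part of copy number or of base composition in the library was not tested.

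**Figure D5:**
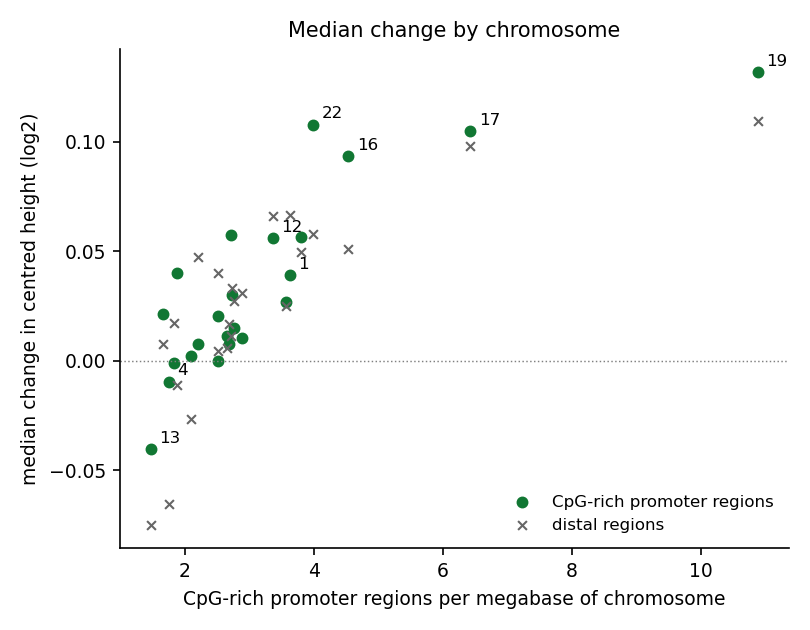
Number of CpG-rich promoter regions per megabase of each of 23 chromosomes (x) and median change in centred summit height, MyoD-deleted minus vector (y, log2), of those regions (green) and of distal regions (grey crosses), with some chromosomes named. The median of the CpG-rich promoter regions runs from -0.040 on chromosome 13 to 0.13 on chromosome 19.

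Motifs were counted in the 201 bases around the summit, on both strands. Those of broadly expressed activators came first. The GC box GGGCGG of SP and KLF factors was in 69.9% of members, against 24.5% of all shared regions and 13.6% of distal regions. The NF-Y word CCAATCA was in 7.03% (3.72% of all), the ETS word CCGGAAGT in 6.90% (1.72%), the NRF1 word GCATGCGC in 4.49% (1.25%), the E2F word GGCGGGAA in 3.73% (1.28%), the YY1 word AAGATGGCG in 2.89% (0.719%), the CRE TGACGTCA in 2.32% (0.888%) and the CTCGCGAG element of BANP in 1.63% (0.385%). The E2F word and the GC box can share bases. Several of these words hold a CpG, and the part of base composition in the shares was not tested. Members with the NF-Y word stood 0.40 above those without it in vector replicates 1 and 2, and those with the ETS word stood 0.20 and 0.22 below. Members with 0, 1, 2 and 3 of these 8 motifs had median heights of 1.66, 1.72, 1.81 and 1.93, the SD of their change was 0.188, 0.172, 0.145 and 0.131, and 5.97%, 4.21%, 3.41% and 3.37% of them changed. The 9 members with 4 of them had a lower median height of 1.45, an SD of 0.100, and 0 changed. Of the 615 members with the ETS word 22 rose and 1 fell (3.58% and 0.163%), against 2.47% and 2.02% of those without it, and of the 258 with the YY1 word 4 rose and 0 fell (1.55% and 0%), against 2.58% and 1.95%, differences that were not tested.

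Words of lineage and stress factors and other general words were also counted, and of these all but CACGTG were in a smaller share of members than of distal regions. The E box CAGCTG, which MyoD and related factors bind, was in 11.5% of members and in 31.5% of distal regions, and CAGGTG in 10.9% and 16.3%. The AP-1 word TGANTCA was in 2.10% and 26.4%, the TEAD word GGAATG in 5.52% and 18.7%, the TATA box TATAAA in 1.63% and 7.21%, the E box CACGTG in 7.12% and 3.73%, and the MEF2 word CTAAAAATA in 5 members (0.0561%) and 0.849% of distal regions. Members that held such words were set beside distal regions that held them. Of 1000 members with CAGCTG and no AP-1 word 19 rose and 35 fell (1.90% and 3.50%), with a median change of 0.0044, whereas of 8950 such distal regions 5.4% rose and 31.4% fell, with a median of -0.21. Of 159 members with the AP-1 word and no CAGCTG 6 rose and 5 fell, and of 7050 such distal regions 24.9% rose and 7.76% fell. CAGCTG was in 21.3% of the members called lower and in 8.81% of those called higher, as it was in the LMF1 and SOX8 window printed above. A match is a string of letters and not a bound site.

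Width and local background were the remaining readouts. The bases covered by peaks had medians of 1161, 1070 and 1133 bp in vector and 1104, 1077 and 1076 bp in MyoD-deleted replicates, with 10 members wider and 52 narrower, beside 0.188% and 1.53% of all shared regions, and with the replicate number as a block 0 passed in either direction. The local background was higher at 631 members and lower at 195, beside 13.3% and 13.8% of all shared regions, and its median change was 0.066, against 0.0045 over all. Without vector replicate 1 the counts were 597 and 485, and without vector replicate 3 they were 967 and 112. Across members, the change in height went with the change in local background (Spearman's rho across 8918 members 0.701) and hardly with the change in width (-0.0497). Both come from the same fragments.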

How the data were processed

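RH30 cells were profiled by ATAC-seq in 3 vector and 3 MyoD-deleted libraries, labelled as biological replicates, and p-values measure the spread between these libraries. The authors aligned reads to hg38 with Rsubread, kept proper pairs with GenomicAlignments and called peaks with MACS2 in each library without pooling. The submitters' notes also name bcl2fastq 2.20 and FastQC. The methods say that listed problem regions of hg38 were left out, without saying whether this came before the deposited peaks. The deposited peaks carry a score, the fold enrichment at the summit over the local background, and −log10 p and −log10 q values, all made by the authors within each library. The protocol gives more than 60000000 total reads but no total for each library, so no interval of counting error is given.

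From the fold enrichment and p-value the pileup and local background at each summit were recovered for 100% of peaks. Overlapping peaks were merged, and annotated with GENCODE 44. Centred log2 height and background, log2 width and the normal score of the rank of fold enrichment were tested with limma 3.58.1 (trended variance, R 4.3.3) with Benjamini-Hochberg adjustment over 47847 shared regions at 0.05. Other steps used Python 3.11.15 with pysam 0.24.0, pandas 2.3.3, matplotlib 3.10.9, scipy 1.17.1 and numpy 2.4.6. The recovery of pileups and the limma fit were tested on simulated data. Genes named were the 8 highest members, the 10 that rose and the 10 that fell most among members called by height and rank without overlap, CYLD and the DNMT genes, the regions nearest each limit, and up to 4 per gene list with the lowest adjusted p. Others are said to be named after their values were seen, and PAX3, MCL1 and BBC3 were also added in this way. The members and lists were chosen with earlier results of these data known. Alternatives were other centrings, no variance trend, a replicate block, each library left out, stricter peaks and other limits of the class.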

Additional observations from a re-analysis of the deposited data

How the results depend on the processing

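Peak lists hold no regions below each caller's threshold and no read totals by library, so a change of the whole class cannot be separated from the scaling, and changes under about 0.24 log2 units were not called at this replicate spread. Of 143 values of counts and medians under the alternatives, 82 stayed within 1.5 times the main count or the spread between libraries. By height, 227 members were higher and 169 lower, against 65 and 58 without the variance trend and 1778 and 28 without centring, where the median change was 0.23 in place of 0.039. Centring on distal regions gave 126 higher, quantile normalization 260 lower, and peaks with −log10 q of at least 5 gave 395 higher. By rank, the 55 and 55 became 36 and 34 without the trend and 266 and 197 by rank of −log10 p. Wider and narrower members, 10 and 52, became 3 and 15 without the trend. With the replicate number as a block the counts were 184 and 148 by height, 26 and 18 by rank and 0 and 0 by width. Libraries with the same number correlated at -0.15, -0.058 and -0.071 in their deviations over members, and those with different numbers at -0.14 to 0.20. With so few libraries, these values cannot show whether those of the same number share a preparation. Leaving out each library gave 68 to 441 higher and 69 to 448 lower by height, 7 to 33 and 6 to 57 by rank, 0 to 5 wider and 0 to 41 narrower, 240 to 967 higher and 104 to 485 lower in background, and medians from -0.015 to 0.093. DNMT3A changed by 0.014, by -0.0055 when centred on distal regions, and by -0.17 to 0.25 with a library left out. Other limits of the class gave 7051 to 10274 members. Of 51 named members called by height, 19 kept the call without each library and 32 lost it without at least 1. Without the trend 22 lost it, without centring 16, when centred on distal regions 7, under the block 6 and under quantile normalization 2. All 16 calls lost without centring were of members that fell. The cause of these shifts was not tested.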
